A study of Mus musculus with 9 samples.

Results

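The proteases that cut the extracellular matrix outside the cell, and the inhibitors that hold them in check, were followed through dental epithelial cells of 2 ages and embryonic stem cells of the mouse. The genes were taken by name: every measured matrix metalloproteinase (Mmp), every numbered Adamts protease (a disintegrin and metalloproteinase with thrombospondin repeats) and the tissue inhibitors of metalloproteinases Timp1 to Timp4. Mmp20 was set aside. This gave 45 genes, made up of 22 Mmps, 19 Adamts proteases and 4 Timps, each measured by 1 transcript cluster, among 39601 clusters of the array that carry a gene symbol. A transcript cluster is the set of probes for 1 gene, and its level is given as a log2 signal. A difference of 1 is a doubling of the processed signal. Folds are ratios of these processed signals, not of raw brightness or RNA amounts.

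Mmps and Adamts proteases are zinc enzymes made as precursors with a propeptide. Removal of the propeptide switches on many of them, but not every Adamts protease depends on it. Collagenases open the collagen triple helix, gelatinases take up the unwound chains, membrane-type Mmps act at the cell surface, and several Adamts proteases trim procollagens or cut proteoglycans such as versican and aggrecan. Timps bind the active site and block it. In the mouse incisor, which grows throughout life, stem cells in the labial cervical loop renew the enamel-forming epithelium beside a collagen-rich mesenchyme.

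The 9 samples formed 3 groups of 3. The embryo group held Sox2-GFP+ cells taken from the incisor epithelium of E14.5 embryos, and the adult group held Sox2-GFP+ cells taken from the labial cervical loop of P30 mice. Both dental groups were dissected by hand, sorted by flow cytometry as living (AAD-) fluorescent cells, and pooled over several animals in each sample, so the Sox2-GFP reporter was common to them. The mESC group was purchased mouse embryonic stem cells. Its titles number biological replicates, but nothing in the labels states that these were separate cultures. The spread among the mESC arrays may therefore be technical only. The fit pools it with the spread of the dental arrays, so p-values may rest in part on technical spread. The labels give neither strain nor sex, nor the form of the reporter allele. Total RNA was hybridised to 1 array per sample, and the number of arrays limits the precision.

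The groups carried the markers of their labels. All 6 dental epithelium markers lay above background in both dental groups, and the keratin gene Krt14 read 15.35, 15.29 and 15.58 in embryo, 14.82, 15.18 and 15.17 in adult and 5.83, 6.45 and 6.77 in mESC. Of the 6, 5 were also above background in mESC. All 6 pluripotency markers were lower in each dental group than in mESC. The adult samples also held markers of other cells. Of 11 macrophage markers all 11 lay above background there, against 3 in the embryo samples, and their summed level (log2 of the summed linear signals) was 14.4 to 14.56 in adult, 8.87 to 10.36 in embryo and 10.28 to 10.79 in mESC. The sums of the 10 mesenchyme markers were 14.39 to 16.86, 11.05 to 13.04 and 9.85 to 10.86 in the same order, with Twist1 under background in embryo and mESC. Those of the 10 osteoblast and odontoblast markers were 11.64 to 13.92, 8.34 to 8.77 and 12.52 to 13.53. Bglap, Bglap2, Sp7, Ibsp, Dmp1, Dspp and Phex lay under background in both embryo and mESC. In mESC the sum lay close to the level of Spp1 alone, at 12.42, 12.53 and 13.48. The sums of the 6 ameloblast markers were 20.61 to 20.88 in adult, 8.81 to 9.95 in embryo and 7.14 to 8.86 in mESC. Klk4 of that list lay under background in every group. None of the neutrophil markers was called in any comparison, and 7 of 8 lay under background in adult and 8 of 8 in embryo. Between embryo and adult, Csf3r and S100a8 had adjusted p of 0.000214 and 0.0203 by limma. Their differences of -0.90 and -0.49 were too small to be called. In sorted bulk cells, fewer cells of a type and less RNA per cell cannot be told apart.

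A gene was taken as above background in a group when its mean exceeded 5.11, the 95th percentile of the array's background probes. By this measure 25 of the 45 genes were above background somewhere, as were 50.03% of all clusters with a gene symbol. Of the 25 genes, 15 were so in all 3 groups, 4 in a pair of groups and 6 in 1 group. The numbers above background were close to one another across groups, at 19 in mESC, 19 in embryo and 21 in adult. The 20 genes under background in every group were Mmp1a, Mmp1b, Mmp7, Mmp8, Mmp10, Mmp12, Mmp17, Mmp19, Mmp21, Mmp24, Mmp27, Mmp28, Adamts6, Adamts8, Adamts12, Adamts13, Adamts15, Adamts16, Adamts20 and Timp4. Their group means ran from 3.07 to 5.09, none was called in any comparison, and their largest difference between groups was 0.71. Brightness differs between probes, so levels are compared for the same gene across arrays and never between genes.

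**Figure D1:**
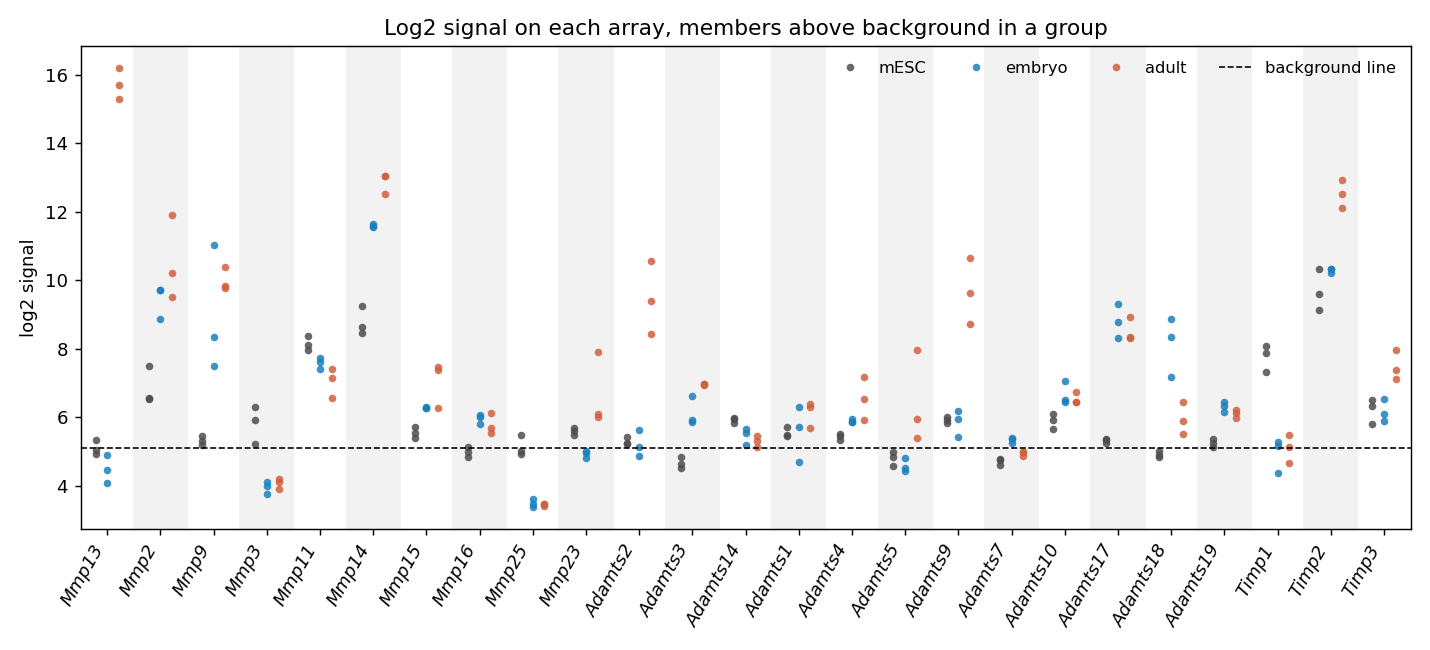
Log2 signal (vertical axis) of the 25 genes above background in at least 1 group, with 1 point per array, grey for mESC, blue for embryo and orange for adult; the dashed line is the background line at 5.11. Mmp13 stands near or under the line on the embryo and mESC arrays and between 15.29 and 16.20 on the adult arrays.

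The comparison of embryo with adult dental cells asks which matrix proteases differ between the tooth-forming epithelium of the embryo and the renewing niche of the adult incisor. Of the 45 genes 8 were called (17.8%, against 6.41% of all clusters), 7 of them lower in embryo and 1 higher. Lower in embryo were the collagenase Mmp13, the cell-surface protease Mmp14, Mmp23, the procollagen processor Adamts2, the versican-cutting Adamts9 and the inhibitors Timp2 and Timp3. Higher in embryo was Adamts18. A gene was called when limma's adjusted p (Benjamini-Hochberg over all 39601 clusters) was under 0.05 and the log2 difference was at least 1 in size. The 7 lower genes are 15.6% of the 45, against 2.83% of all clusters called lower, and the 1 higher gene is 2.22%, against 3.59% of all clusters called higher. The median difference of the 45 genes was -0.05 and that of all clusters 0.007. The arrays of both stages did not overlap for 11 of the 45 genes (24.4%), against 27.8% of all clusters.

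**Figure D2:**
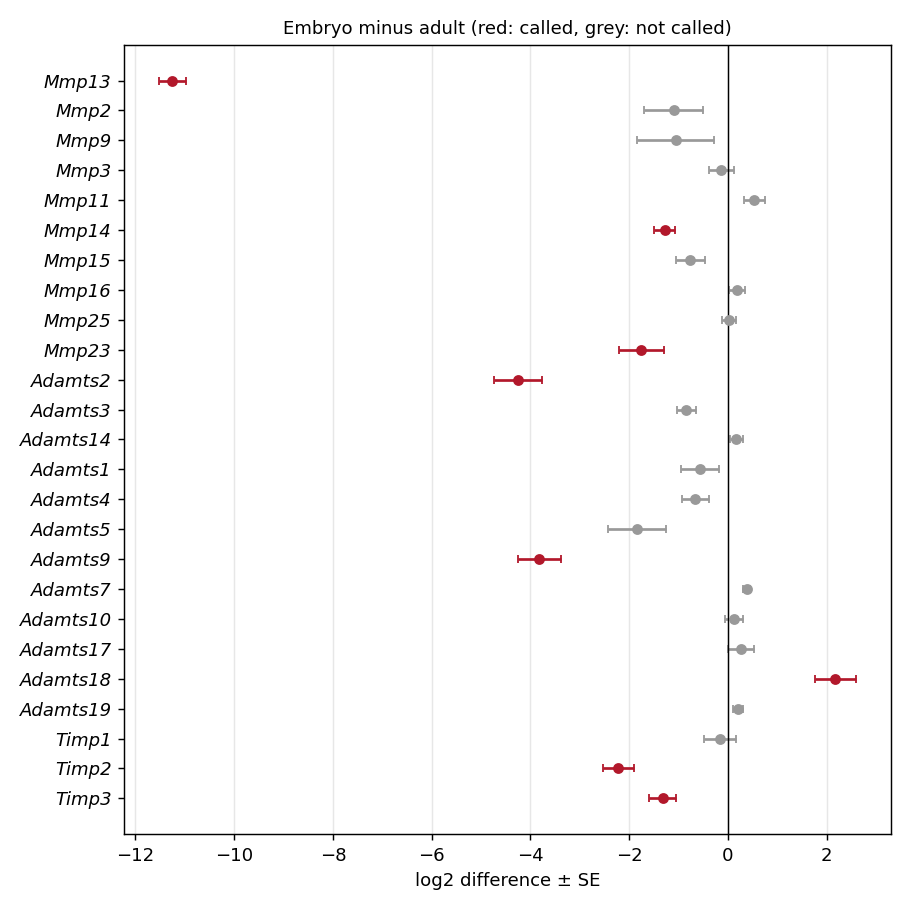
Log2 difference, embryo minus adult, with its standard error (horizontal axis) for the 25 genes above background in at least 1 group; red points were called and grey points were not. Mmp13 lies at -11.25, and Adamts18, at 2.18, is the 1 red point to the right of 0.

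Mmp13, collagenase 3, cuts fibrillar collagens and is known from cartilage and bone. Its cluster lies on the plus strand of chromosome 9, from 7272514 to 7283333 (no source used here names the build of these coordinates, but all 45 clusters overlap the gene of the same name on GRCm38.p6). Mmp13 read 15.70, 16.20 and 15.29 in adult, 4.90, 4.45 and 4.09 in embryo and 4.93, 5.03 and 5.35 in mESC. Every embryo array and all but 1 of the mESC arrays lay under background, while every adult array lay far above it. The difference of embryo from adult was -11.25 ± 0.27 (SE, n = 3 and 3, adjusted p = 9.26e-07 by limma), and counted only from the background line Mmp13 was at least 1570-fold higher in adult. In the authors' deposited table the same gene had a signed fold of -2440 in embryo against adult, with an adjusted p of 0.00934. The difference was -11.26 without adult replicate 1. The other genes grouped here with the collagenases, Mmp1a, Mmp1b and Mmp8, lay under background in every group.

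Mmp13 is the first of the 9 members that lie within 427 kb of chromosome 9 (7272514 to 7699585). It is followed by the elastase Mmp12, Mmp1b, the stromelysin Mmp3, the collagenase Mmp1a, the stromelysin Mmp10, the collagenase Mmp8, Mmp27 and the matrilysin Mmp7. Mmp20, which was set aside and not analysed here, lies in the same stretch between Mmp27 and Mmp7. Of the 9 members Mmp13 alone was above background in adult, Mmp3 alone was above it in mESC, and in embryo there were 0. Next to Mmp13, whose adult mean was 15.73 ± 0.46 (SD), Mmp12 had an adult mean of 4.12, an embryo mean of 4.04 and an mESC mean of 4.31. The clusters of Mmp12 and Mmp1b overlap in position on opposite strands.

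**Figure D3:**
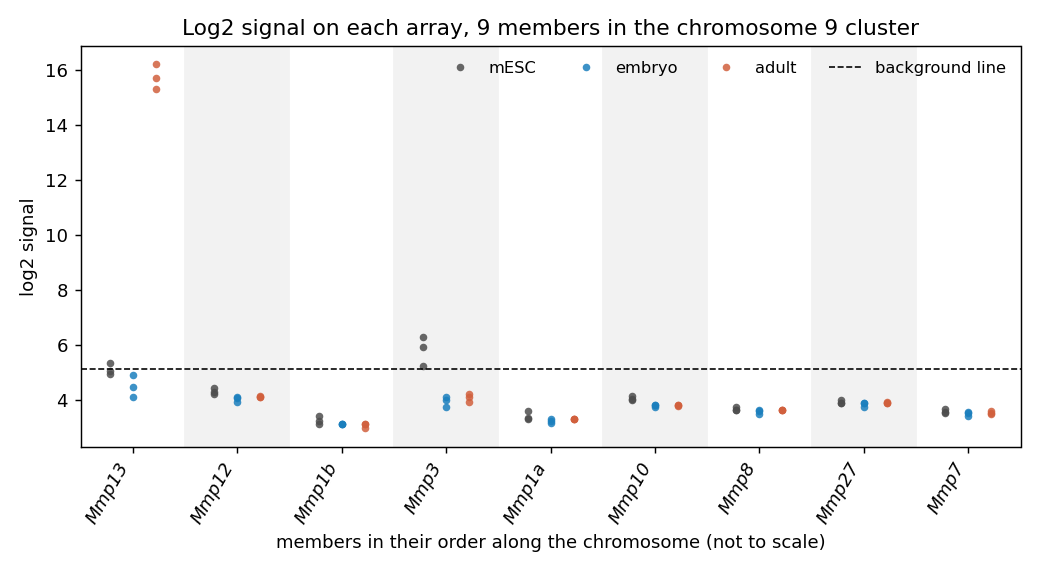
Log2 signal on each array (vertical axis) for the 9 members in the chromosome 9 cluster in their order along the chromosome, with the background line dashed at 5.11. The 3 adult points of Mmp13 stand alone at the top, and the mESC points of Mmp3 lie between 5.23 and 6.29.

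The sequence before the start of Mmp13 is shown with those of Mmp3 and Mmp10 from the same cluster, because the 3 genes shared promoter elements and differed in where they were detected. Each line gives the 250 bases before the start, 5′ to 3′, from the RefSeq promoter table on GRCm38.p6, plus strand. Capitals mark matches to the AP-1 element, spelled TGANTCA. They also mark the Runx element, spelled TGTGGT and read here on either strand. The remaining capitals are the TATA box, spelled TATAAA.
Mmp13 (chr9:7272264-7272513): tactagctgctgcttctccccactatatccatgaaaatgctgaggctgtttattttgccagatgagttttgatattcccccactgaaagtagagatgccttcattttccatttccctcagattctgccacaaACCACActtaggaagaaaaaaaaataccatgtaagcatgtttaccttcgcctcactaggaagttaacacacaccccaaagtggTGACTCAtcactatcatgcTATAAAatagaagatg
Mmp3 (chr9:7445572-7445821): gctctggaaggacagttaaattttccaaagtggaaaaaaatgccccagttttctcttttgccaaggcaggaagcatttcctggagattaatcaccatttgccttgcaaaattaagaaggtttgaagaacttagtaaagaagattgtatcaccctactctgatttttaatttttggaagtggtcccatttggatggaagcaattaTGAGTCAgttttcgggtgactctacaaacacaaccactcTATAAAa
Mmp10 (chr9:7502092-7502341): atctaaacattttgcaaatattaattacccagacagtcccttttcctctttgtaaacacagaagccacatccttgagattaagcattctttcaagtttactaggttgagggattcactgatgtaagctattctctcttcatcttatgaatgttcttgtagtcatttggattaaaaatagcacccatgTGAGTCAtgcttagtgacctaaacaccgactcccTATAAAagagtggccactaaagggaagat
Counted from the start, the AP-1 match began at base -35 in Mmp13, -46 in Mmp3 and -63 in Mmp10, and a TATA box followed it in each. Mmp13 also held a reverse Runx match at -118, which the printed stretches of Mmp3 and Mmp10 did not. The table held windows of 31 of the 45 genes (34 windows, 250 bases before to 50 after the start). Both strands were searched, and no motif is part of another. The AP-1 element was in 7 of the 34 windows (20.6%), against 7.81% of all 32851 windows, and those 7 were Mmp1a, Mmp1b, Mmp3, Mmp7, Mmp10, Mmp12 and Mmp13, all of the chromosome 9 cluster. The TATA box was in 10 windows (29.4% against 13.6%) and the Runx element in 6 (17.6% against 16.8%). Of the 7 genes with an AP-1 match, Mmp13 and Mmp3 were above background in any group. A match is a run of letters and does not show that a factor binds there.

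Among membrane-type Mmps, Mmp14 (MT1-MMP) activates the precursor of Mmp2 at the cell surface in a complex with Timp2. Mmp14 read 13.05, 13.04 and 12.51 in adult, 11.63, 11.55 and 11.57 in embryo and 8.47, 8.64 and 9.26 in mESC. The groups did not overlap, and embryo lay between the others. Embryo was lower than adult by -1.28 ± 0.22 (SE, adjusted p = 0.00624 by limma), a 2.43-fold difference. Mmp15 read 6.27, 7.48 and 7.38 in adult and 6.31, 6.27 and 6.27 in embryo, so that 1 adult array lay at the embryo level. Its difference of -0.76 was not called (adjusted p = 0.137), and without adult replicate 1 it was -1.15 and called (adjusted p = 0.000587, limma). Mmp16 lay between 5.53 and 6.12 in both dental groups, which overlapped, and Mmp25 lay under background on all dental arrays.

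Timp2, an inhibitor that also takes part in the activation of Mmp2, read 12.92, 12.52 and 12.10 in adult, 10.33, 10.22 and 10.33 in embryo and 9.12, 9.61 and 10.33 in mESC. The adult arrays stood above all others, while embryo and mESC overlapped. Timp2 differed by -2.22 ± 0.31 (SE, adjusted p = 0.0024 by limma), embryo against adult, a 4.66-fold difference. In the authors' deposited table Timp2 and Mmp13 were the members that met both thresholds between embryo and adult, Timp2 with an adjusted p of 0.0489. Timp3, which binds to the matrix and also inhibits Adamts proteases, read 7.12, 7.39 and 7.96 in adult, 6.54, 6.09 and 5.89 in embryo and 5.79, 6.34 and 6.50 in mESC. The adult arrays lay above the rest by a small margin, and the difference from embryo was -1.32 ± 0.28 (adjusted p = 0.0154 by limma). Timp3 was no longer called without embryo replicate 2 (-1.27), nor without embryo replicate 3 (-1.18), each with an adjusted p of 0.058. Timp1 read 5.48, 4.66 and 5.12 in adult and 4.36, 5.27 and 5.15 in embryo, around the background line, with a difference of -0.16 ± 0.32 (adjusted p = 0.84 by limma). Timp4 lay between 3.87 and 4.08 on all 9 arrays, under background.

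The gelatinases Mmp2 and Mmp9 digest denatured collagen and basement membrane collagen. Mmp2 read 11.91, 10.20 and 9.51 in adult and 9.73, 9.71 and 8.87 in embryo, and the groups overlapped. Its difference of -1.10 ± 0.60 was not called (adjusted p = 0.307 by limma). Mmp9 read 9.78, 10.40 and 9.83 in adult and 11.02, 7.50 and 8.34 in embryo, so that embryo replicate 1 was above every adult array while the other embryo arrays were below them all. Its difference was -1.05 ± 0.78 (adjusted p = 0.481 by limma). Without embryo replicate 1 it was -2.08 and called (adjusted p = 0.00471). With the pair of embryo columns that share a name in the second deposited summary averaged, it was -1.20 and called (adjusted p = 0.0436). Mmp9 is known to be abundant in osteoclasts, and the median of the 7 osteoclast markers was 7.33 in embryo replicate 1 and 5.68 and 5.67 in the other embryo samples, against 4.12, 4.43 and 4.98 in adult. The summed level of those markers was 8.64 to 10.04 in embryo, 9.49 to 9.7 in adult and 7.58 to 7.75 in mESC, and Calcr, Oscar and Ocstamp lay under background in every group. Of the 7 markers, 1 was called higher in embryo than in adult and 0 lower. That gene was Dcstamp, whose values are the list median on each dental array and lie under background in adult. Acp5 and Ctsk had lower means in embryo than in adult (7.16 against 7.75 and 7.71 against 8.57) and were not called. Atp6v0d2 had means of 6.75 against 6.74, and read 8.52, 5.70 and 6.04 on the embryo arrays. Embryo replicate 1 also had the highest embryo median of the mesenchyme markers (8.04, 7.12 and 6.51). The same held for the macrophage markers (4.97, 4.56 and 4.73, under background). The dental epithelium median was lowest there (12.80, 13.24 and 13.38). The part of any of these marker lists in the Mmp9 values was not tested.

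The procollagen N-proteinases Adamts2, Adamts3 and Adamts14 remove the amino-terminal propeptide of fibrillar procollagens, and Adamts3 also processes Vegfc. Adamts2 read 10.57, 9.39 and 8.42 in adult, 5.62, 5.14 and 4.86 in embryo and 5.22, 5.41 and 5.25 in mESC. The adult arrays stood well above the rest although they spread over more than 2 log2 units, and the embryo arrays lay near background. Adamts2 differed by -4.25 ± 0.48 (SE, adjusted p = 0.000967 by limma), a 19.1-fold difference, and by -3.70 without adult replicate 1. Adamts3 read 6.94, 6.97 and 6.98 in adult and 5.92, 5.85 and 6.61 in embryo. These arrays did not overlap, and the difference of -0.84 ± 0.19 had an adjusted p of 0.0229 (limma) but lay under the minimum size of 1. Without embryo replicate 3, Adamts3 was called at -1.08. Adamts14 lay between 5.14 and 5.66 in both dental groups, which overlapped.

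Of the proteoglycan-cleaving Adamts proteases, Adamts9 cuts versican and aggrecan. Adamts9 read 10.64, 9.62 and 8.71 in adult, 6.17, 5.41 and 5.94 in embryo and 6.0, 5.93 and 5.84 in mESC. As with Adamts2, each adult array stood above all others, with adult replicate 1 on top. The difference was -3.82 ± 0.44 (SE, adjusted p = 0.00103 by limma), a 14.1-fold difference, and -3.32 without adult replicate 1. Adamts5, an aggrecanase, read 7.97, 5.94 and 5.40 in adult, and all embryo arrays lay under background at 4.82, 4.43 and 4.53. Its difference of -1.84 ± 0.58 was not called (adjusted p = 0.0738 by limma), although the arrays did not overlap. Adamts5 was called without adult replicate 1 (-1.08) and without adult replicate 3 (-2.36). Adamts1, which also cuts versican, lay between 4.70 and 6.30 in embryo and 5.70 and 6.38 in adult, and Adamts4, an aggrecanase, read 5.86, 5.94 and 5.86 in embryo against 7.19, 6.52 and 5.93 in adult. Both overlapped between the stages and were not called.

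Adamts18, whose loss in the mouse is known to disturb branching organs such as the lung and lacrimal gland, was the 1 member called higher in embryo. Adamts18 read 7.18, 8.35 and 8.87 in embryo, 5.52, 6.44 and 5.89 in adult and 5.02, 4.84 and 4.89 in mESC. The groups did not overlap, with mESC under background on every array. The difference of embryo from adult was 2.18 ± 0.41 (SE, adjusted p = 0.00964 by limma), a 4.54-fold difference. Adamts18 kept its size but not its call when only the embryo and adult arrays were fitted (2.18, adjusted p = 0.0515), and in the authors' deposited table its adjusted p was 0.205. Adamts17, linked in humans to a disorder of short stature and eye lens, read 8.30, 9.32 and 8.77 in embryo and 8.34, 8.30 and 8.94 in adult, and these overlapped. Adamts7 read 5.36, 5.40 and 5.24 in embryo and 5.0, 4.87 and 4.99 in adult, a difference of 0.38 ± 0.07 with an adjusted p of 0.00913 (limma), too small to be called. Adamts10 and Adamts19 overlapped between the stages.

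Mmp23, a small Mmp that is held in the membrane by its amino-terminal end, read 7.91, 6.02 and 6.11 in adult and 4.81, 5.02 and 4.95 in embryo, with all embryo arrays under background. It was at least 2.97-fold higher in adult, with a difference of -1.75 ± 0.45 (adjusted p = 0.0345 by limma). This call was the least firm of the 8. Mmp23 lost it without any 1 of the embryo or mESC arrays (adjusted p from 0.0599 to 0.0925) and with the replicate number as a block (adjusted p = 0.0599). Without adult replicate 1 it kept the call at -1.14. The stromelysin Mmp11 lay between 7.41 and 7.73 in embryo and 6.56 and 7.42 in adult, and these overlapped.

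The adult arrays differed among themselves for many of these genes. Of the 21 genes above background in adult, 13 were brightest in adult replicate 1, as were 5 of the 7 genes called lower in embryo, the exceptions being Mmp13 and Timp3. For the same 21 genes mESC replicate 3 was the brightest mESC array for 13 and embryo replicate 1 the brightest embryo array for 12. Adult replicate 1 also differed from the other adult samples in several marker lists. The median of the mesenchyme markers was 12.12 in adult replicate 1 and 10.02 and 9.82 in the other adult samples. The median of the osteoblast and odontoblast markers was 9.59 there against 7.51 and 7.10, and the median of the ameloblast markers was 16.57 against 12.25 and 12.23. The ameloblast gap came from the later markers Amtn (14.01, 4.39 and 5.64) and Odam (9.99, 5.66 and 5.36), while the enamel matrix gene Amelx read 19.12, 18.98 and 18.96 on the adult arrays and Ambn and Enam were as close. The macrophage markers did not follow this order, with medians of 10.44, 10.20 and 10.64, nor did the dental epithelium markers, at 12.70, 13.48 and 13.40. Called lower in embryo than in adult were 10 of 11 macrophage and 7 of 10 osteoblast and odontoblast markers. So were 6 of 10 mesenchyme and 3 of 6 ameloblast markers, against 2.83% of all clusters. The part of these markers in the differences of Mmp13, Mmp14, Adamts2, Adamts9, Timp2, Timp3 and Mmp23 was not tested. All 8 calls were kept without adult replicate 1.

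**Figure D4:**
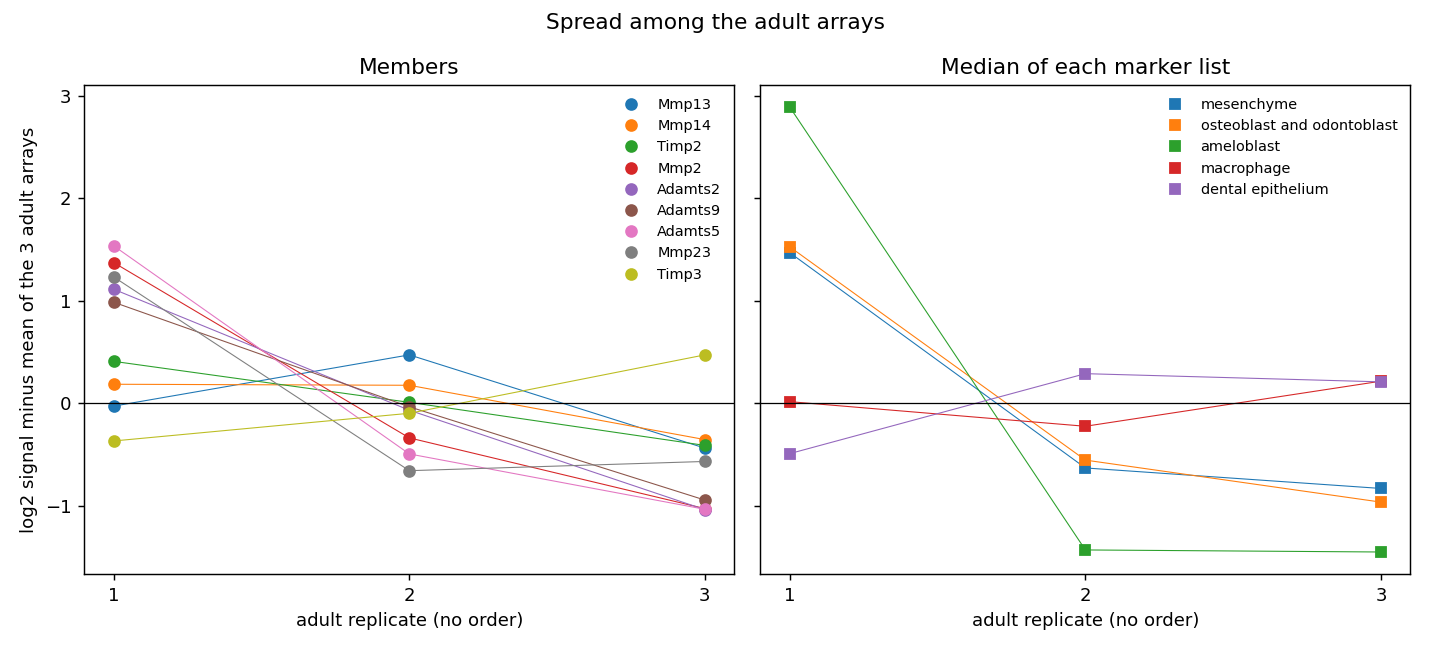
Log2 signal minus the mean of the 3 adult arrays (vertical axis) by adult replicate (horizontal axis, numbers without order; thin lines join the points of 1 gene or list), for 9 genes on the left and for the median of 5 marker lists on the right. Adamts5, Mmp2, Mmp23, Adamts2 and Adamts9 are highest in replicate 1, as are the ameloblast, osteoblast and odontoblast, and mesenchyme lists, whereas Timp3 and the dental epithelium list are lowest there.

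The column names of a second deposited summary carry digits that were read as 2 processing days. The first day had 2 adult arrays and 1 embryo array, and the second had 3 mESC arrays, 2 embryo arrays and 1 adult array. With day as a block the difference of Mmp13 was -11.15, of Adamts2 -4.01, of Adamts9 -3.69, of Timp2 -2.13, of Mmp23 -1.59, of Timp3 -1.46, of Mmp14 -1.20 and of Adamts18 2.25, and all but Mmp23 (adjusted p = 0.0767 by limma) were called. On the first day alone the differences of the same genes were -11.50, -4.84, -4.72, -2.50, -1.94, -1.16, -1.50 and 2.37. With 1 embryo and 2 adult arrays that day could not support a call at these thresholds even for Mmp13 (adjusted p = 0.266 by limma), and 0 members were called (12 of 45 had an unadjusted p under 0.05). On the second day alone they were -10.80, -3.18, -2.66, -1.77, -1.23, -1.74, -0.91 and 2.13, and there Mmp13, Adamts2, Adamts9, Mmp23 and Mmp15 were called. That fit has 1 adult array, which is assumed to vary like the embryo and mESC arrays, so the spread among adult samples does not enter it. Each of the 8 genes kept its direction on both days. In that summary 2 embryo columns, 1 of each day, carry the same name, and whether they are separate samples or 1 sample run again was not settled. The sample titles number 3 biological replicates, which is the n used here. With those columns averaged, 7 of the 8 calls were kept and Mmp23 was not called (adjusted p = 0.0885 by limma).

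The comparisons with mESC ask how the dental cells differ from cultured pluripotent cells. They share the mESC arrays, so their values are given side by side. Between embryo and mESC 10 genes were called (22.2%, against 11% of all clusters), of which 7 were higher (Mmp2, Mmp9, Mmp14, Adamts3, Adamts17, Adamts18 and Adamts19) and 3 lower (Mmp3, Mmp25 and Timp1). The 7 are 15.6% of the 45, against 4.88% of all clusters called higher, and the 3 are 6.67%, against 6.1% called lower. Between adult and mESC 16 were called (35.6% against 17.2%), of which 12 were higher (Mmp2, Mmp9, Mmp13, Mmp14, Mmp15, Adamts2, Adamts3, Adamts4, Adamts9, Adamts17, Timp2 and Timp3), 26.7% against 6.87% of all clusters, and 4 lower (Mmp3, Mmp11, Mmp25 and Timp1), 8.89% against 10.3%. The median difference of the 45 genes was -0.08 for embryo and 0.03 for adult, and that of all clusters -0.073 and -0.07. The arrays did not overlap for 23 of 45 genes (51.1% against 42% of all clusters) between embryo and mESC, and for 29 (64.4% against 47.5%) between adult and mESC.

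**Figure D5:**
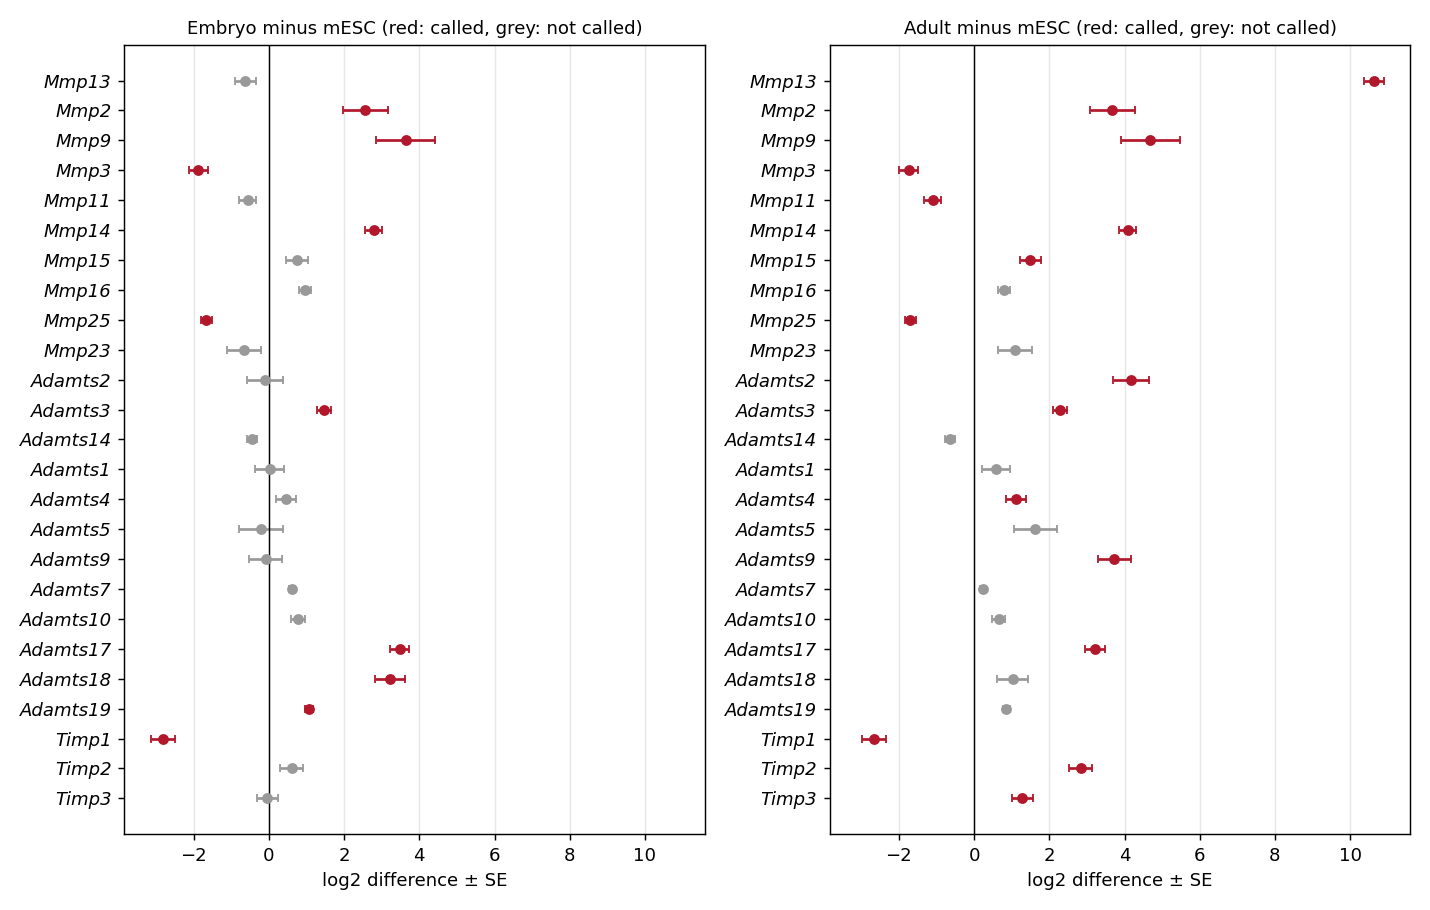
Log2 difference from mESC with its standard error (horizontal axis) for the 25 genes above background in at least 1 group, embryo on the left and adult on the right; red points were called and grey points were not. Timp1, Mmp3 and Mmp25 lie to the left of 0 in both panels, and Mmp13, at 10.63, is far to the right in the adult panel.

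Several proteases were higher in both dental groups than in mESC. Mmp14 was higher by 2.79 ± 0.22 (SE) in embryo and 4.08 ± 0.22 in adult (adjusted p = 7e-05 and 6.25e-06 by limma). Mmp9, at 5.20, 5.30 and 5.44 in mESC, was higher by 3.64 ± 0.78 in embryo and 4.69 ± 0.78 in adult (adjusted p = 0.0104 and 0.00213). Without embryo replicate 1 the embryo difference of Mmp9 was 2.61 and called, and in the authors' deposited table it was not called (adjusted p = 0.13). Mmp2, at 6.53, 6.56 and 7.51 in mESC, was higher by 2.57 ± 0.60 and 3.67 ± 0.60 (adjusted p = 0.0152 and 0.00194). The embryo call of Mmp2 was lost without mESC replicate 1, mESC replicate 2 or embryo replicate 2, with adjusted p from 0.0526 to 0.0556 by limma.

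Adamts17 read 5.33, 5.25 and 5.37 in mESC and was higher by 3.48 ± 0.26 (SE) in embryo and 3.21 ± 0.26 in adult (adjusted p = 5.78e-05 and 4.96e-05 by limma), 11.2-fold and 9.25-fold. Adamts3 lay under background on the mESC arrays, at 4.51, 4.85 and 4.65, and was at least 2.02-fold higher in embryo and at least 3.61-fold higher in adult (adjusted p = 0.00103 and 5.7e-05). Adamts18 was at least 8.13-fold higher in embryo than in mESC (adjusted p = 0.00085), and its adult difference of 1.03 ± 0.41 was not called (adjusted p = 0.0899). Adamts19 read 5.36, 5.24 and 5.12 in mESC, 6.15, 6.44 and 6.33 in embryo and 6.20, 6.13 and 5.98 in adult. Its differences of 1.07 ± 0.10 in embryo and 0.86 ± 0.10 in adult lie on both sides of the minimum size (adjusted p = 0.000179 and 0.000328 by limma), and embryo and adult differed by 0.20 ± 0.10 (adjusted p = 0.258). Mmp16 lay near background in mESC, at 4.85, 5.13 and 5.0. Its differences of 0.97 in embryo and 0.79 in adult were under the minimum size. The embryo difference was called with median centring (1.03), without mESC replicate 2 (1.04) and without embryo replicate 3 (1.05). It also met both thresholds in the authors' deposited table (1.04).

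Another set was higher in adult than in mESC and not called in embryo. Mmp13 was higher by 10.63 ± 0.27 (SE, adjusted p = 1.61e-07 by limma), with an mESC mean at the background line and 1 of 3 mESC arrays above it. Adamts2 was higher by 4.17 ± 0.48 and Adamts9 by 3.73 ± 0.44 (adjusted p = 0.000299 and 0.000325), whereas their embryo differences were -0.09 and -0.08, with embryo and mESC arrays overlapping. Timp2 was higher by 2.83 ± 0.31 and Timp3 by 1.28 ± 0.28 in adult (adjusted p = 0.000229 and 0.00784), against 0.61 and -0.04 in embryo. Mmp15 was higher by 1.5 ± 0.29 (adjusted p = 0.00457). Adamts4 read 5.46, 5.34 and 5.51 in mESC and was higher by 1.11 ± 0.27 in adult (adjusted p = 0.0132 by limma), but by 0.79 without adult replicate 1, which ended its call. The test of embryo against adult, given above, called Mmp13, Adamts2, Adamts9, Timp2 and Timp3 and did not call Mmp15 or Adamts4.

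The genes higher in mESC were fewer. Timp1, a secreted inhibitor that many cultured cells make, read 7.31, 7.87 and 8.07 in mESC and lay around or under background in the dental groups, which did not overlap with it. It was lower by -2.82 ± 0.32 (SE) in embryo and -2.66 ± 0.32 in adult (adjusted p = 0.000433 and 0.000355 by limma). These dental means lie under the background line, with 2 of 3 arrays of each dental group just above it, so the sizes are not exact. Mmp3, stromelysin 1, which can activate other Mmp precursors, read 5.23, 5.92 and 6.29 in mESC and lay under background on every dental array, so it was at least 1.63-fold higher in mESC than in either group (adjusted p = 0.00102 and 0.000935). Mmp25, a membrane-type Mmp known from white blood cells, passed the background line on 1 mESC array (5.48, against 5.02 and 4.94) and on no dental array, and counted from the line it was at least 1.03-fold higher in mESC. Mmp11, stromelysin 3, which furin activates inside the cell, read 7.97, 8.10 and 8.36 in mESC, 7.61, 7.41 and 7.73 in embryo and 7.15, 6.56 and 7.42 in adult. Its adult difference of -1.10 ± 0.22 (adjusted p = 0.00489 by limma) fell under the minimum size without mESC replicate 3 (-0.99) or adult replicate 2 (-0.86).

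Other genes of the pathway were listed by role. Of 10 activators and receptors, 0 were higher and 2 lower in embryo than in adult. Those were Cd44, the hyaluronan receptor to which some Mmps dock, at -3.79 ± 0.31 (SE), and Lrp1, the endocytic receptor that clears Mmps and Timps, at -2.54 ± 0.30 (adjusted p = 0.000231 and 0.00119 by limma). Against mESC, 3 were higher and 2 lower in embryo, and 5 higher and 1 lower in adult. Furin, the convertase that activates membrane-type Mmps, was higher by 2.19 and 1.81 in embryo and adult, and Plat, the tissue plasminogen activator, by 3.38 and 2.04.

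Of 7 other inhibitors, 0 were higher and 3 lower in embryo than in adult. These were A2m, the broad protease trap alpha-2-macroglobulin, which was at least 6.23-fold higher in adult, Serpine2, an inhibitor of plasminogen activators and thrombin, at -2.30 ± 0.42 (SE), and Reck, a membrane-anchored Mmp inhibitor, at -2.10 ± 0.56 (adjusted p = 0.000437, 0.00818 and 0.0393 by limma). Reck read 11.48, 9.93 and 9.03 in adult, so its adult arrays spread as those of Adamts9 did.

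Of 11 related metalloproteinases, 0 were higher and 1 lower in embryo than in adult, 2 higher and 1 lower in embryo than in mESC, and 4 higher and 1 lower in adult than in mESC. Adam19 was the lower gene in all 3 comparisons, by -1.59, -3.97 and -2.38. Adam10, a membrane protease that sheds Notch and other receptors, was higher than in mESC by 2.97 and 3.60. Bmp1, which removes the carboxy-terminal propeptide of procollagens, was higher by 2.33 and 2.17. Among 6 Adamts-like proteins, which resemble Adamts proteases without the catalytic part, Papln read 13.91, 11.18 and 10.76 in adult and 6.67, 6.67 and 6.64 in embryo, a difference of -5.29 ± 0.71 (SE, adjusted p = 0.00206 by limma), and was the 1 gene of that list called between the stages. Against mESC, 1 of the 6 was higher in embryo and 2 in adult.

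The last list held 7 proteoglycans, several of which these enzymes cut. Of the 7, 1 was higher and 1 lower in embryo than in adult. Against mESC, 2 were higher and 1 lower in embryo, and 2 higher and 0 lower in adult. Vcan, the versican gene, read 14.20, 13.60 and 14.02 in embryo, 10.73, 11.57 and 11.57 in adult and 7.57, 7.33 and 7.55 in mESC, with no overlap. It was higher in embryo than in adult by 2.65 ± 0.25 (SE, adjusted p = 0.000437 by limma), opposite in direction to Adamts9. Bgn, the biglycan gene, was lower in embryo than in adult by -3.23 ± 0.44 (adjusted p = 0.00212). Dcn, the decorin gene, was higher than in mESC by 5.13 ± 0.61 in embryo and 6.27 ± 0.61 in adult, and its stage difference of -1.14 ± 0.61 was not called (adjusted p = 0.296).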

How the data were processed

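Total RNA of 9 samples was read on Affymetrix MTA-1_0 arrays, and the values are log2 signals deposited by the authors, 1 for each transcript cluster and array. Expression Console, Transcriptome Analysis Console and RMA are named without versions, per the submitters' processing notes, and the signals are SST-RMA values normalised between arrays, per the file headers. The authors' deposited tables also give, per comparison, a signed linear fold, a score below -1 where the first group is lower, and an adjusted p-value.

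Groups came from the sample titles. The members and gene lists were chosen with earlier results of these data known. Differences were tested with limma 3.58.1 (R 4.3.3; lmFit, eBayes without trend), all 9 arrays in 1 fit of 3 group means with 6 residual degrees of freedom, adjusted over the 39601 of 65956 clusters with a gene symbol. The procedure was tested on simulated data. The Mmp17 cluster carries a second symbol.

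The planned rule named negative-control probe sets. The 23 antigenomic background probe sets (95th percentile 5.11) gave the line, since the 5222 intronic controls reached 9.27. That stricter line was tried as an alternative. "At least N-fold" compares a bright group's mean with the line, or with the dim group where higher, where a group lay under it on all arrays. Array values are given for called members, up to 10 per direction and comparison, though for some of them not in every group. Timp4 is given as a range. Other members above background have array values, ranges or a statement of overlap. Up to 4 genes of each other list are named. The comparisons of the other inhibitors with mESC are not reported here. The planned search of protein sequences was not made, and no proteins were used here. Alternatives covered normalisation, variance trend, array weights, groups fitted, symbols, background, processing day, replicate block and each array left out. The fits within single days, the averaging of same-named columns and the intronic line were chosen after seeing the data. Replicate numbers do not pair samples.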

Additional observations from a re-analysis of the deposited data

How the results depend on the processing

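No called gene changed direction under any alternative run. The 8, 10 and 16 genes called (embryo minus adult, embryo minus mESC, adult minus mESC) became 7, 10 and 16 with the replicate block. The numbers mark no shared litter or day in the labels, and same-numbered embryo and adult deviations correlated at 0.154, 0.001 and 0.052. Leaving out 1 array gave 6 to 10, 9 to 11 and 15 to 17 calls. With genes kept only above the 95th percentile of the intronic controls, 7 members were tested and 5, 3 and 7 called, counts that the filter itself shapes, since several members passed it through the adult group alone. Between embryo and adult, 5 were called on the second day alone, 0 on the first day alone (3 arrays, too few for a call), and 2 in the authors' deposited table. With no minimum difference, embryo minus mESC gave 17. Of the 8, 10 and 16 called genes, 2, 1 and 2 lost the call when some single array was left out. Between adult and mESC, Mmp2, Mmp11, Mmp15, Timp3 and Adamts4 were not called in the authors' deposited table, with adjusted p from 0.0562 to 0.141. Adamts19 lost its embryo call under quantile normalisation (0.94). Adamts4 was under the minimum size in adult with quantile normalisation (0.97), with array weights (0.94) and with day as a block (0.78). Mmp11 was at -0.83 with day as a block. Where not stated, the cause was not tested. Averaging over clusters changed nothing, since each gene has 1.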
